A study of Mus musculus with 28 samples.

Results

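The H2 genes are the mouse major histocompatibility complex (MHC), a cluster of immune genes on chromosome 17. They were taken here as every gene whose deposited name starts with H2-, which gave 36 of 22138 rows in both the RNA table and the promoter table, with 35 distinct names because H2-Q2 names 2 rows. The study measured RNA and histone marks in mouse primordial germ cells, the embryonic precursors of sperm and eggs, at the fetal stage E13.5, and asked what the loss of Setdb1, an H3K9 methyltransferase, changes in them. Germ cells had been sorted as SSEA1+ cells of male and female gonads, and the SSEA1- fraction of male gonads served as soma. The RNA groups used here were male and female KO (Setdb1 delta/-, n = 2 each), male and female Het (n = 4 each, pooling 2 libraries of Het1, Setdb1 delta/+, with 2 of Het2, Setdb1 flox/-), male and female WT (Setdb1 flox/+, 1 library each), and 1 library each of wildtype C57BL/6 male germ cells and soma. For H3K9me3 and H3K27me3 there was 1 library per sex of Het (Setdb1 flox/-) and of KO (Setdb1 delta/-) germ cells, and for H3K9me3 also 1 library of wildtype C57BL/6 male soma. The labels do not say which Cre driver made the deletion, what strain the cross had, or whether libraries came from separate embryos or pools. Every p-value below therefore measures only the spread between libraries, which may be technical.

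Classical class I molecules, encoded by H2-K1 and H2-D1, sit on the surface of most nucleated cells with beta-2-microglobulin and present peptides from inside the cell to cytotoxic T cells. Genes of the Q, T and M regions encode related class I molecules, many of them with narrow or poorly known expression. Class II molecules (the Aa, Ab1, Eb1 and Eb2 chains) present peptides taken up from outside the cell, mainly on professional antigen-presenting cells, with the chaperone H2-DM loading the peptides and H2-O modulating H2-DM. H2-Ke2 and H2-Ke6 carry the prefix only for their place in the cluster: Ke2 is the prefoldin subunit Pfdn6 and Ke6 is a hydroxysteroid dehydrogenase.

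RNA levels are given as RPKM, reads per kilobase of gene scaled to library size, as the authors deposited them. Between 11270 and 12745 genes reached RPKM 1 in a library. RPKM leaves the read depth of each library unknown. Setdb1 RNA was between 27.11 and 31.2 in the male KO libraries and 31.28 and 34.65 in the female ones, below every Het library of the same sex (lowest 37.53 in males and 38.24 in females). The sum of 12 germ cell markers was 2560.53 in C57BL/6 male germ cells and 35.89 in the soma library. Across the female libraries of the cross it was lowest in KO replicate 1 (1132.62) and in Het2 replicate 1 (1446.93).

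Most H2 genes were near 0 in germ cells. Of the 36 rows, 6 were listed at 0 in all 16 RNA libraries, 17 stayed under RPKM 1 in every library, and 15 reached RPKM 1 in at least 2 of the 12 Het and KO libraries and were tested. Of these 15, H2-K1, H2-Q4, H2-T22, H2-T24, H2-Ke2 and H2-Ke6 (6 genes) reached that filter on male libraries alone. The other 9 reached it only with female libraries, so a count of sex differences among the tested genes is not evidence about the family. The M region was the emptiest: 0 of its 12 genes was tested, and its highest germ cell values were 1.92 for H2-M10.2 in the male WT library and 1.44 for H2-M3 in male Het1 replicate 1. The 21 genes that were not tested never exceeded 1.92 in any germ cell library. At the other end stood the position-named genes, with H2-Ke2 between 42.64 and 76.61 and H2-Ke6 between 14.78 and 24.98 over the germ cell libraries.

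**Figure D1:**
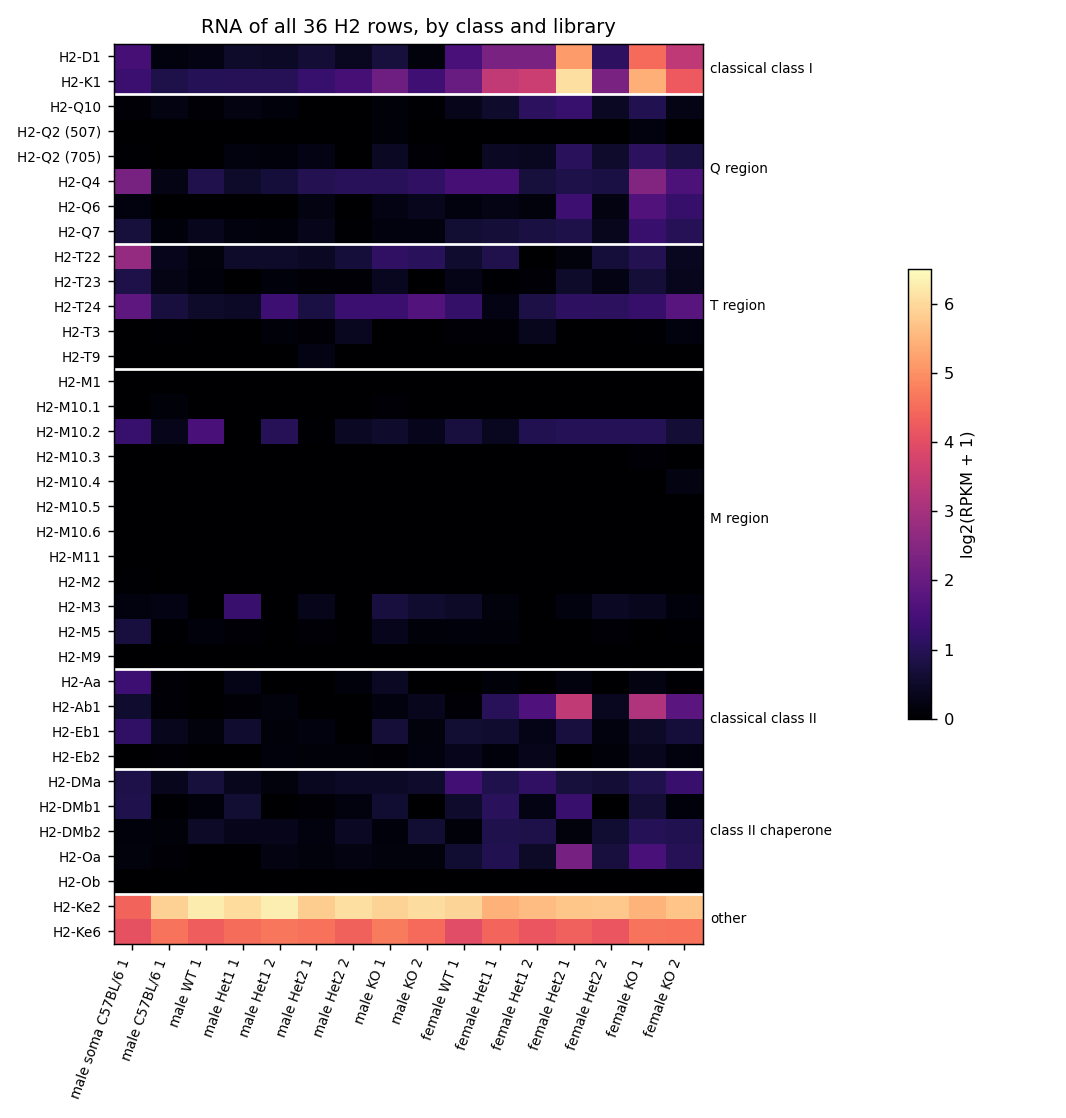
Colour gives log2(RPKM + 1) for each of the 36 H2 rows (vertical axis, grouped by class) in each of the 16 RNA libraries (horizontal axis, with genotype and replicate); the 2 rows named H2-Q2 carry the last 3 digits of their identifiers. H2-Ke2 and H2-Ke6 are bright in every library, H2-K1 and H2-D1 are bright in the female Het and KO libraries, and the M region is dark.

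The classical class I genes were higher in female than in male Het germ cells. H2-K1 stood at 1.01 and 1.0 RPKM in male Het1 and at 1.4 and 1.76 in male Het2, against 9.91 and 11.07 in female Het1 and 66.86 and 3.99 in female Het2. H2-D1 stood at 0.44, 0.39, 0.58 and 0.32 in the same male libraries, against 3.97, 3.96, 34.3 and 1.15 in the female ones. For both genes every female Het library lay above every male one, and female Het2 replicate 1 lay far above the other female libraries. The female WT library had 3.02 RPKM of H2-K1 and 1.87 of H2-D1, and the male WT library had 0.98 and 0.18. The log2 difference of RPKM + 1, female minus male, was 2.68 for H2-K1 (SE 0.60, limma adjusted p = 0.00513) and 2.20 for H2-D1 (SE 0.63, limma adjusted p = 0.0184). Without female Het2 replicate 1 the log2 differences were 1.94 (limma adjusted p = 0.00219) and 1.39 (limma adjusted p = 0.00885).

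**Figure D2:**
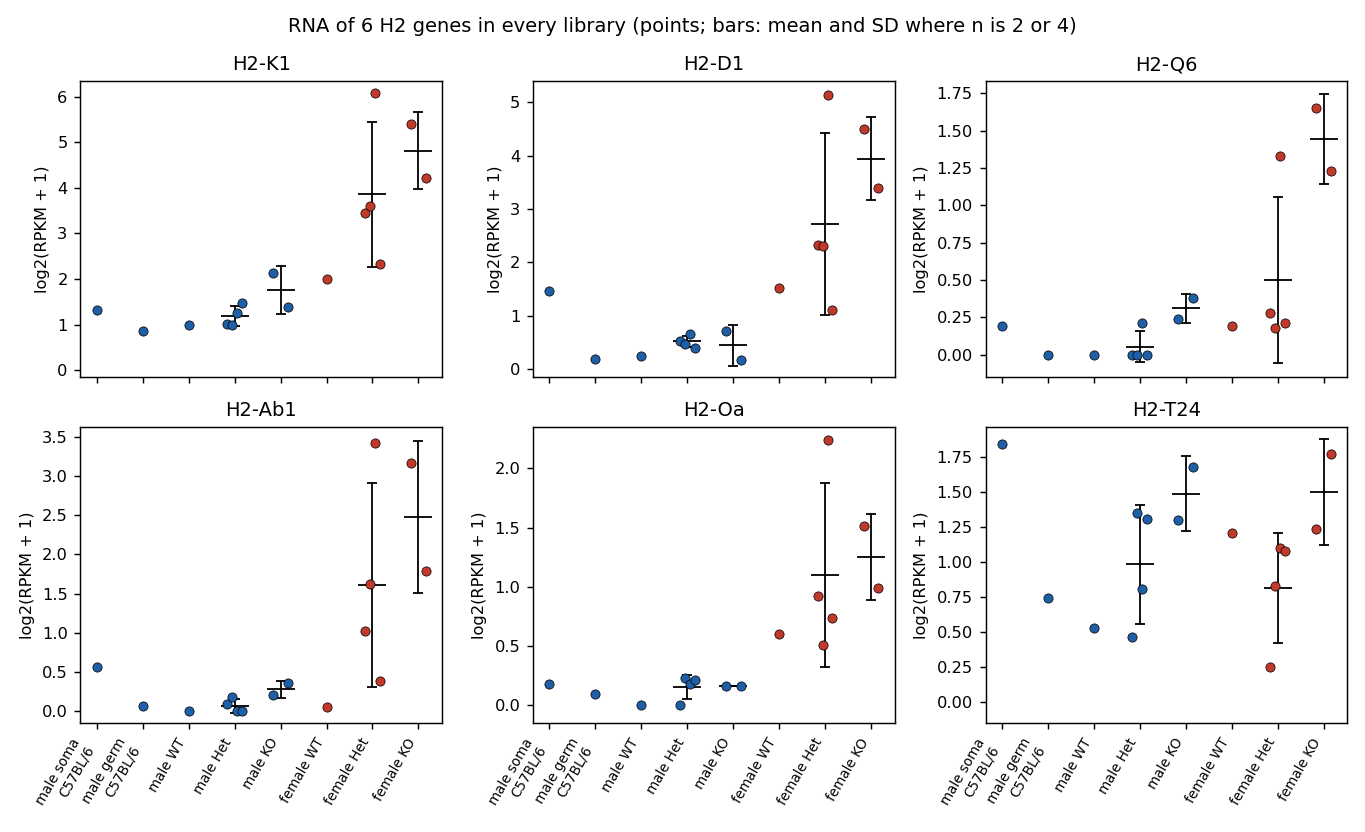
Each panel shows 1 H2 gene as log2(RPKM + 1) (vertical axis) by group (horizontal axis); every point is a library, blue for male and red for female, and bars give the mean and SD of groups of 2 or 4. For H2-K1, H2-D1, H2-Ab1 and H2-Oa all 4 female Het points lie above all 4 male Het points, and the female Het groups are spread widely.

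H2-Ab1, the beta chain of the class II molecule I-A, followed the same order. Its RPKM was 0.07, 0.13, 0 and 0 in the male Het libraries and 1.03, 2.08, 9.67 and 0.31 in the female ones, and the groups did not overlap. H2-Oa, the alpha chain of the class II chaperone H2-O, was 0, 0.17, 0.13 and 0.16 in male Het and 0.89, 0.42, 3.71 and 0.67 in female Het libraries. Their log2 differences were 1.54 for H2-Ab1 (limma adjusted p = 0.0347) and 0.95 for H2-Oa (limma adjusted p = 0.0337). The partner chain H2-Aa, which H2-Ab1 needs to form a class II molecule, was at most 0.14 in any female Het library. A further 3 smaller differences also passed: H2-Q10, a secreted class I molecule (0.74, limma adjusted p = 0.0196), H2-Q7 (0.50, limma adjusted p = 0.0303) and H2-DMa, the alpha chain of the class II chaperone H2-DM (0.49, limma adjusted p = 0.0399). All 3 stayed low, with female Het means of 0.823 ± 0.491 for H2-Q10, 0.603 ± 0.221 for H2-Q7 and 0.810 ± 0.280 for H2-DMa (SD, n = 4).

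In all, 7 of the 15 tested H2 genes were higher in female Het germ cells, beside 17.6% of all 13518 genes tested, and 6 of these 7 had passed the filter only with female libraries. H2-Ke2 was lower, at 48.7 ± 4.66 RPKM in female against 65.8 ± 8.65 in male Het (SD, n = 4 each, log2 difference -0.42, limma adjusted p = 0.0224), beside 14.3% of all genes that were lower. With each library centred on its median the split was 5 higher and 2 lower among the H2 genes, and 1955 higher and 2407 lower among all genes in place of 2373 and 1939. The lower pair under that centring were H2-Ke2 and H2-Ke6 (18.2 ± 1.75 in female and 22.1 ± 1.99 in male Het). The female Het libraries lay wholly above the male ones for 8 of the 15 genes, the 7 named above and H2-Q2, beside 17.3% of all genes. H2-Q4, H2-Q6, H2-T22, H2-T24 and H2-DMb1 did not pass; their log2 differences ran from -0.17 (H2-T24) to 0.45 (H2-Q6). H2-K1 and H2-D1 kept their calls when any 1 library was left out. The count of 8 calls went to 3 without male Het1 replicate 2 or female Het1 replicate 2, to 4 without male Het1 replicate 1 or either male Het2 replicate, and to 5 without female Het1 replicate 1 or female Het2 replicate 1. With Het1 alone as the control genotype 2 genes passed, and with Het2 alone 0.

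The promoters of several class I genes are closely related in sequence. The 250 bases before the start of the transcript are shown for H2-K1 (chr17:34000348-34000597, minus strand), H2-D1 (chr17:35262844-35263093, plus strand) and H2-Q6 (chr17:35424600-35424849, plus strand), with H2-Oa (chr17:34092129-34092378, plus strand) for comparison. H2-K1, H2-D1 and H2-Oa were higher in female Het germ cells, and H2-Q6 did not pass. The sequences are those of RefSeq on GRCm38.p6, a build other than that of the deposited values, and are printed 5′ to 3′ along the gene. Capitals mark 4 short motifs known from MHC class I promoters, searched on both strands: GGGATTCCC (an NF-kB type site), TTTCNNTTC (interferon response type), TGACG (a CRE core) and CCAAT or its reverse ATTGG.
H2-K1: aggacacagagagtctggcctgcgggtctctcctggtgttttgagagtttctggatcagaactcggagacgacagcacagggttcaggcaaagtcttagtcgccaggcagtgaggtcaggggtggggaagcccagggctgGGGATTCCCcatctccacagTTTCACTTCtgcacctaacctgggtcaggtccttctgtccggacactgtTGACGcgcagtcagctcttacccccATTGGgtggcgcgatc
H2-D1: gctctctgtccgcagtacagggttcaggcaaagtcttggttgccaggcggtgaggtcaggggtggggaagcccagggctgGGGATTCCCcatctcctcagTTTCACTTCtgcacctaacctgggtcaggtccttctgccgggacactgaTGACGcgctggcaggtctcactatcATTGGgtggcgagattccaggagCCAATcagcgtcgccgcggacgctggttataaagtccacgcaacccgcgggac
H2-Q6: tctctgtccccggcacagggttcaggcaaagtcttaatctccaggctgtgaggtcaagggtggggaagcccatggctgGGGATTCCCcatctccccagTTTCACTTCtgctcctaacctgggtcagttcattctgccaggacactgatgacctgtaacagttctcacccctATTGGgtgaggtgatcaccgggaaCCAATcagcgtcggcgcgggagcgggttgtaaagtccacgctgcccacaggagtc
H2-Oa: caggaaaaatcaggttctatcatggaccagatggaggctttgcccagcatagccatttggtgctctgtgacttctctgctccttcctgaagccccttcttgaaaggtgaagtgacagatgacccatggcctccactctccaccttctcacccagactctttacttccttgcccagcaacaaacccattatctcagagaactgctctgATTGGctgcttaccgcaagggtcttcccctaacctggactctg
The upstream windows of H2-K1 and H2-D1 were 87.4% identical over 190 aligned bases, those of H2-D1 and H2-Q6 83.8% over 247, and those of H2-Q6 and H2-Q7 97.6% over 210. The first motif was found in 0.301% of all 32851 RefSeq promoter windows of the same length, the second in 6.31%, TGACG in 17.8% and CCAAT in 33.8%. Among the 33 H2 rows matched to that table, 4 genes held the first motif (H2-K1, H2-D1, H2-Q6 and H2-Q7), 8 the second, 13 TGACG and 29 CCAAT. All 4 motifs stood together in 4 windows of the whole table, 0.0122%, and those were the windows of H2-K1 (2 of them), H2-D1 and H2-Q7. H2-Oa, which also differed between the sexes, holds only the last of the 4 motifs. The motifs were chosen with these promoters in view and a match is only a match of letters. Because these genes resemble each other, and how reads shared between them were counted is not given in the sources used here, the split of reads between H2-K1, H2-D1 and the Q genes is uncertain.

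Among the female libraries, H2-K1 and H2-Ab1 followed the order of Stra8, the gene that marks entry into meiosis in fetal ovarian germ cells. Stra8 stood at 36.68 RPKM in female WT, 122.27 and 136.52 in Het1, 322.76 and 73.35 in Het2, and 228.46 and 158.41 in KO. H2-K1 in the same order was 3.02, then 9.91 and 11.07, then 66.86 and 3.99, then 41.53 and 17.65. The ranks of the 7 libraries were identical for Stra8, H2-K1 and H2-Ab1. For H2-D1, Het2 replicate 2 (1.15) lay below WT (1.87) and the Het1 libraries were nearly equal (3.97 and 3.96). On the log2(RPKM + 1) scale H2-K1 had Pearson's r = 0.957 (exact permutation p = 0.00139, adjusted over 15 H2 genes p = 0.0104) and Spearman's rho = 1 (exact permutation p = 3.97e-04, adjusted p = 0.00298). H2-Ab1 had r = 0.946 (exact permutation p = 0.00139, adjusted p = 0.0104) with the same rho and p, and H2-D1 had r = 0.894 (exact permutation p = 0.00595, adjusted p = 0.0275) and rho = 0.929 (exact permutation p = 0.00675, adjusted p = 0.0337). H2-Q2 passed by r alone (0.899, exact permutation p = 0.00734, adjusted p = 0.0275; rho 0.821, adjusted p = 0.102), and the other 11 tested H2 genes passed by neither measure. Leaving out the 2 libraries farthest from the Stra8 median (female WT and Het2 replicate 1) gave r = 0.988 for H2-K1, 0.964 for H2-Ab1, 0.975 for H2-D1 and 0.698 for H2-Q2. The relation was looked at after the values were seen, the 7 libraries span 3 genotype classes, and 117 of the 13518 tested genes (0.866%) had the same rank order as Stra8. A rho of at least 0.9 was reached by 3 of the 15 H2 genes (H2-K1, H2-Ab1 and H2-D1) and by 644 of all tested genes (4.76%). Male Het germ cells had 0.678 ± 1.09 RPKM of Stra8 (SD, n = 4).

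**Figure D3:**
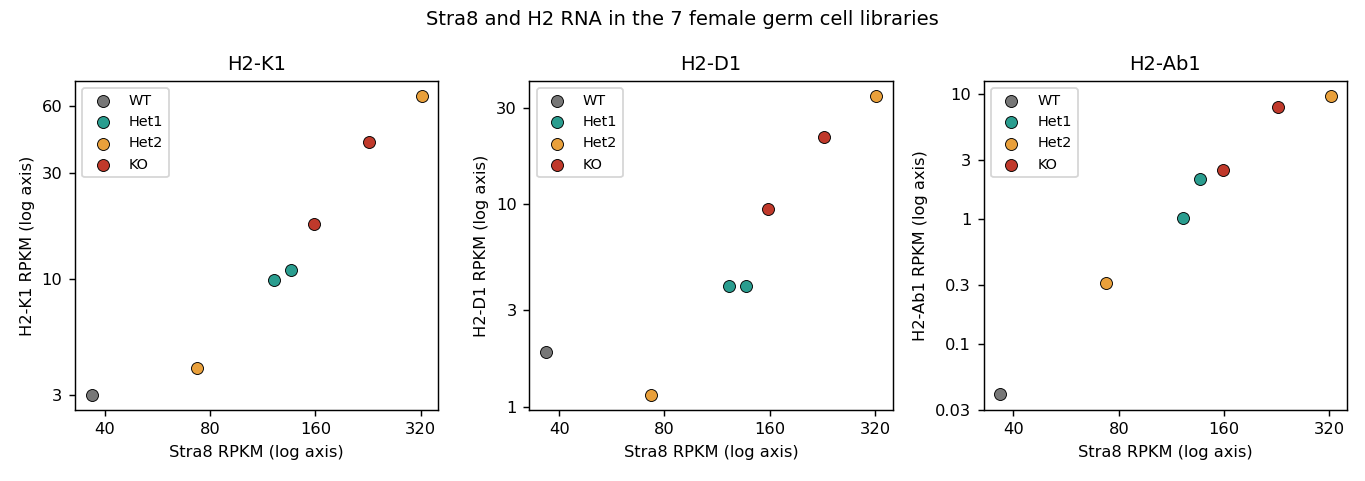
Each point is 1 of the 7 female germ cell libraries, coloured by genotype, with Stra8 RPKM on the horizontal axis and the RPKM of H2-K1, H2-D1 or H2-Ab1 on the vertical axis (log axes). H2-K1 and H2-Ab1 rank the libraries as Stra8 does, from WT at 36.68 to Het2 replicate 1 at 322.76 RPKM of Stra8.

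Markers of other cells moved with part of this order. The sum of 5 erythroid markers was 260.61 RPKM in female Het2 replicate 1 and 46.23 in female KO replicate 1, the libraries highest in H2-K1, and between 1.78 and 3.77 in the other female libraries. The male soma library, where the erythroid sum was 2670.64, held 1.49 RPKM of H2-K1 and 1.75 of H2-D1. Its erythroid RNA had another make-up, with Hbb-y at 1082.43 and Hbb-b1 at 982.12. In female Het2 replicate 1 these were 3.21 and 179.21, so the soma library cannot stand in for the erythroid RNA there. The sum of 16 leukocyte markers was 6.5 in female Het2 replicate 1, inside the range of the female Het libraries (6.31 to 12.51). In that library 10 of the 16 were at 0, among them Ptprc, Tyrobp and Lyz2. Ptprc, Tyrobp and Lyz2 were at 0 in female Het1 replicate 2 too. C1qb (1.76) was the 1 of the 16 that was highest in Het2 replicate 1 among the female Het libraries (0 to 0.08 in the others). In the soma library the leukocyte sum was 62.57. Supporting cell markers ranged from 11.43 to 15.91 and stromal markers from 14.26 to 39.97 over the female Het libraries, with 13.19 and 23.17 in Het2 replicate 1. Female KO replicate 1 was the highest of the 7 female libraries for supporting cell (27.62), stromal (52.38) and leukocyte markers (15.59). The sums of Leydig cell (4.88) and endothelial markers (18.65) were lowest in Het2 replicate 1 among the 4 female Het libraries. Of the 5 Leydig markers, Cyp11a1 (0.73) and Hsd3b1 (0.57) were nevertheless highest there. Pecam1 gave 15.32 of the endothelial sum. It was 44.87 in C57BL/6 germ cells and 3.77 in soma, so this sum does not single out endothelial cells. In bulk libraries fewer cells of a type and less RNA per cell cannot be told apart, and the part of other cells in the sex difference was not tested.

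Genes that work with the class I molecules did not move as a block between the sexes. Of 11 tested genes of a class I pathway list, 2 were higher in female Het germ cells, Tap1, a subunit of the peptide transporter (0.14 ± 0.0942 in male and 1.09 ± 0.388 RPKM in female Het, log2 difference 0.86, limma adjusted p = 0.00301), and B2m, the beta-2-microglobulin light chain (7.51 ± 2.12 and 12.7 ± 3.14, log2 difference 0.69, limma adjusted p = 0.0218; SD, n = 4). Another 3 were lower: Tapbp (tapasin), Calr and Pdia3, which assist folding and peptide loading, with log2 differences of -1.08, -0.58 and -0.43. The median over the 11 genes was -0.35, beside 0.05 over all genes tested. Of 7 tested class II pathway genes, 2 were higher, Rfxap (0.61) and Rfx5 (0.48), both subunits of the RFX complex that binds MHC promoters. Rfxank, another subunit, went the other way without passing (-0.43, limma adjusted p = 0.137). The median over the 7 genes was -0.31. Ciita, also on this list, was too low to be tested. Of 13 tested interferon pathway genes, the receptor subunits Ifngr1 (0.88) and Ifnar1 (0.87) were higher, and Irgm1 (-2.70), Isg15 (-2.05), Irf1 (-1.31) and Oasl2 (-0.85) were lower. Of 18 tested genes inside the MHC that are not H2 genes, 2 were higher (Tap1 and Pbx2) and 11 lower, the largest fall being Wdr46 (-1.22); the others were Tapbp, Pou5f1, Cchcr1, Gpsm3, Slc39a7, Vps52, Rxrb, Tcf19, Daxx and Brd2. Neither of the 2 tested class I-like genes outside the MHC passed, and Fcgrt, the neonatal Fc receptor chain, had the smaller p (limma adjusted p = 0.254).

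Loss of Setdb1 gave no call among the H2 genes in any KO contrast fitted with all 12 libraries. In males 0 of 15 passed, beside 0.614% of all genes called by limma, and 0 had an unadjusted p under 0.05, beside 4.55% of all genes. In females 0 of 15 passed, beside 0.407% called, and 5 had an unadjusted p under 0.05, beside 12.4%. Averaged over the sexes 0 of 15 passed, beside 1.04% called, and 3 had an unadjusted p under 0.05, beside 12.6%. The KO effect did not pass as different between the sexes for any of the 15 genes, beside 0.0518% of all genes called, and 0 had an unadjusted p under 0.05, beside 3.65%.

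The genes nearest to the threshold were Q region genes and H2-T24. H2-Q4, a class I gene of the Q region, was 1.77, 0.64, 0.79 and 0.73 RPKM in female Het and 4.42 and 1.99 in female KO, both above every Het library (log2 difference 1.06, SE 0.28, limma adjusted p = 0.153). H2-Q6 was 0.21, 0.13, 1.52 and 0.16 in female Het and 2.15 and 1.35 in female KO, so the groups overlapped through Het2 replicate 1 alone (0.94, SE 0.30, limma adjusted p = 0.216). H2-T24 was 0.19, 0.78, 1.14 and 1.11 in female Het and 1.35 and 2.41 in female KO, and 0.38, 1.55, 0.75 and 1.48 in male Het and 1.46 and 2.2 in male KO, and its KO minus Het value averaged over the sexes was 0.60 on the log2 scale (SE 0.22, limma adjusted p = 0.262). H2-Q7 (0.47, limma adjusted p = 0.346) and H2-Ke6 (0.34, limma adjusted p = 0.366) were the other 2 with an unadjusted p under 0.05 in females. Both female KO libraries lay above all 4 female Het libraries for 4 of the 15 genes (H2-Q4, H2-Q7, H2-T24 and H2-Ke6), beside 14.8% of all genes. In males this held for 3 of the 15 (H2-Q6, H2-T22 and H2-Ab1), beside 9.01%. H2-T22, a class I gene of the T region, was 0.43, 0.43, 0.36 and 0.61 RPKM in male Het and 1.17 and 1.09 in male KO (log2 difference 0.55, SE 0.26, limma adjusted p = 1.0). The remaining low genes, H2-DMb1 and H2-Q2, never exceeded 1.44 and 1.12 RPKM in any library.

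Female Het2 replicate 1 decided several of these comparisons. H2-K1 in females was 29.6 ± 16.9 RPKM in KO (n = 2) against 23.0 ± 29.4 in Het (n = 4), a log2 difference of 0.95 (SE 0.73, limma adjusted p = 0.665). H2-D1 was 15.5 ± 8.46 against 10.8 ± 15.7 (log2 difference 1.22, limma adjusted p = 0.574), and H2-Ab1 5.21 ± 3.89 against 3.27 ± 4.33 (0.86, limma adjusted p = 0.634). Without that library 2 of 11 tested H2 genes were higher in female KO, beside 1.04% of all 13418 genes tested: H2-Q6 (log2 difference 1.22, limma adjusted p = 0.0141) and H2-D1 (2.03, limma adjusted p = 0.0368), and H2-Q6 also passed over both sexes (0.74, limma adjusted p = 0.0164). H2-K1 then missed the threshold (1.70, limma adjusted p = 0.0726). When any other library was left out, no H2 gene was called in female KO. Female Het2 replicate 1 was the highest female Het library for H2-K1, H2-D1 and H2-Q6. Leaving it out thus favours higher values in KO, and the count of 2 is not evidence about the family. Between the libraries kept, the germ cell marker sum was 1850.87 to 2051.68 in female Het and 1132.62 and 1517.26 in female KO. The stromal sum was 14.26 to 39.97 and 52.38 and 37.79, and the erythroid sum 1.78 to 3.77 and 46.23 and 2.19. Stra8 was 73.35 to 136.52 in the kept female Het libraries and 228.46 and 158.41 in female KO. The part of these differences in the H2 values was not tested. In males H2-K1 was 3.38 and 1.61 in KO against 1.0 to 1.76 in Het, and H2-D1 was 0.64 and 0.12 against 0.32 to 0.58. Both pairs overlapped. The male KO libraries also held more RNA of 5 Leydig cell markers, summing to 26.87 and 56.14 RPKM against 3.42 to 5.32 in male Het, and the part of such cells in the H2 values was not tested.

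**Figure D4:**
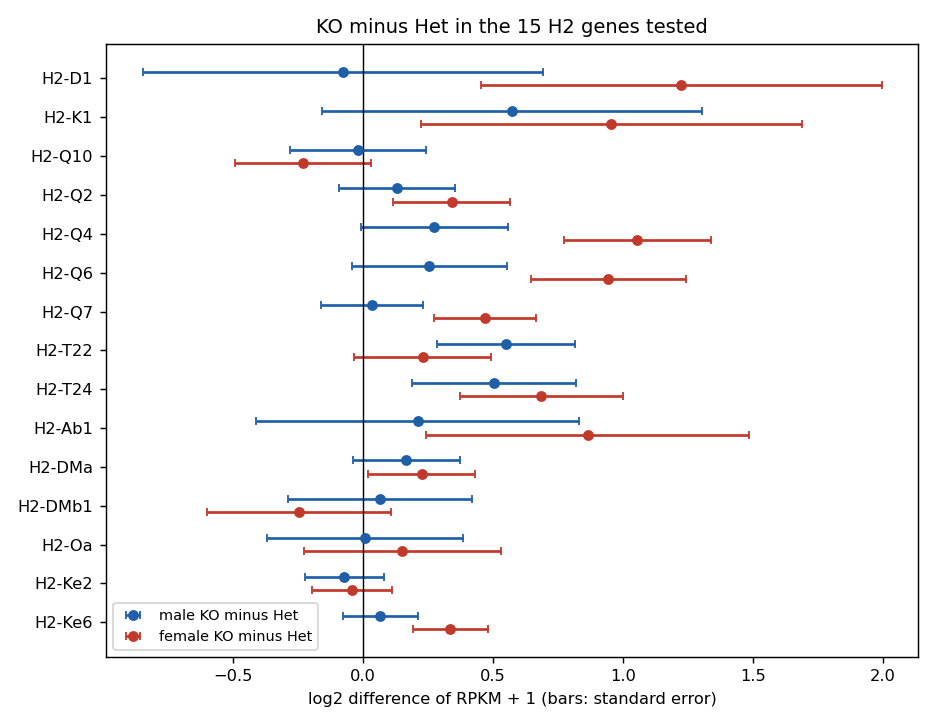
Points give the log2 difference of RPKM + 1 between KO and Het (horizontal axis) for the 15 tested H2 genes (vertical axis), in blue for males and red for females, and bars give the standard error of the limma fit. None passed the threshold; H2-Q4 and H2-Q6 in females lie farthest from 0 relative to their errors.

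None of the pathway lists held a gene called in a KO contrast. The smallest p in the class I list over both sexes belonged to B2m (log2 difference 0.55, limma adjusted p = 0.195), and in the class II list to Cd74, the invariant chain (0.94, limma adjusted p = 0.147). Gabbr1, a GABA receptor gene inside the MHC, came nearest of the neighbours, in females (4.67 ± 0.841 RPKM in KO, n = 2, and 1.43 ± 0.152 in Het, n = 4; limma adjusted p = 0.0829). In the interferon list Ifngr2 had the smallest p over both sexes (limma adjusted p = 0.263).

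In the C57BL/6 libraries, 1 of soma and 1 of germ cells, several H2 genes were higher in soma. Among them was H2-D1, which was also higher in female Het germ cells. H2-T22 was 5.61 RPKM in soma and 0.26 in germ cells, H2-Q4 3.81 and 0.21, and H2-T24 2.59 and 0.67. H2-D1 (1.75 and 0.14) and H2-Aa (1.57 and 0.05) were also past 2-fold after adding 1 RPKM. These were 5 of the 10 H2 genes at RPKM 1 or more in either library, beside 28.7% of all such genes. All 5 reached RPKM 1 only in the soma library, so this count is not evidence about the family. H2-Ke2 was the 1 of 10 that was lower in soma (19.69 against 57.95), beside 17.6%. H2-K1 (1.49 and 0.8), H2-Eb1 (1.21 and 0.3), H2-M10.2 (1.38 and 0.24) and H2-Ke6 (15.77 and 23.5) stayed within 2-fold. Here B2m was 53.57 in soma and 2.44 in germ cells. That was the lowest germ cell value of B2m, with 5.64 to 10.55 in male Het and 14.66 in male WT. In the same libraries H2-Q4 was 0.44 to 1.05 and 0.87, and H2-T22 0.36 to 0.61 and 0.12. H2-T24 was 0.38 to 1.55 and 0.44, H2-D1 0.32 to 0.58 and 0.18, and H2-Aa 0 to 0.23 and 0. With 1 library on each side there is no test, and female soma was not analysed here.

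At H2 promoters, H3K27me3, the mark laid by Polycomb repressive complex 2, stood above the level of all promoters, and so did H3K9me3. Promoter values are RPKM summed by the authors from 1 kb before to 1 kb after each start, again without replicates. In male Het germ cells the H3K27me3 median was 0.6595 over H2 and 0.254 over all promoters. For H3K9me3 it was 0.307 and 0.127. In female Het the medians were 0.629 and 0.296 for H3K27me3 and 0.3465 and 0.179 for H3K9me3. Total H3 was not used here, and how reads shared between like promoters were counted is not given. Whether H3K27me3 is particular to the family was not tested. H3K27me3 was at RPKM 1 or more in both Het germ cell libraries at 12 of the 36 H2 promoters, beside 7.53% of all 22138 promoters. They were H2-K1, H2-D1, H2-Q4, H2-Q6, H2-Q7, H2-Q10, both H2-Q2 rows, H2-T22, H2-T24, H2-M5 and H2-Ab1. In male Het germ cells H2-Q7 had the highest value (1.974), with H2-D1 at 1.849 and H2-K1 at 1.659. In female Het germ cells these 3 promoters stood at 1.445, 1.272 and 1.194. H2-Ke2 and H2-Ke6, the H2 genes with the most RNA, lay at 0.185 and 0.124 in males and 0.109 and 0.237 in females. Of the 12 promoters, 5 belonged to genes whose RNA was higher in female Het germ cells: H2-K1, H2-D1, H2-Q7, H2-Q10 and H2-Ab1. RNA of H2-Q4, H2-Q6, H2-T22, H2-T24 and 1 H2-Q2 row did not pass, and H2-M5 and the other H2-Q2 row were not tested. Over all tested H2 genes 7 of 15 were higher. The promoters of H2-Oa (0.758 in male and 0.744 in female Het) and H2-DMa (0.426 and 0.397), also among those 7, stayed under 1. A link between the mark and the sex difference was not tested.

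The H3K27me3 differences between sexes and genotypes followed those of all promoters. Among promoters at RPKM 1 or more, the median log2 difference between female and male Het was -0.40 over 13 H2 promoters and -0.27 over all. Between female KO and Het it was -0.36 over 13 H2 promoters, all 13 negative, and -0.27 over all, and between male KO and Het it was -0.0063 over 14 H2 promoters and -0.0042 over all. By the rule of a 2-fold difference in the same direction in both sexes, 0 of 13 H2 promoters changed in KO, beside 0.0556% of all. By the same rule in both genotypes, 0 of 11 differed between female and male germ cells, beside 0.224%.

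H2-T24, a class I gene of the T region, was the 1 H2 promoter with H3K9me3 at RPKM 1 or more in both Het germ cell libraries, beside 0.881% of all promoters. Its H3K9me3 was 2.152 in male Het and 0.784 in male KO, and 1.787 in female Het and 0.675 in female KO. The log2 differences after adding 0.1 RPKM were -1.35 in males and -1.28 in females, beside medians of 0.021 and -0.34 over all promoters at RPKM 1 or more. It was thus the 1 of 1 H2 promoter that could be called and was lower in KO, beside 7.14% of all such promoters. It reached RPKM 1 only in the Het libraries, so the floor favoured a fall in KO. The count is not evidence about the family. With 0.5 RPKM added in place of 0.1 the female difference fell short of 2-fold. Its H3K27me3 was also lower in KO, 0.44 against 1.196 in males and 0.602 against 1.207 in females, with log2 differences of -1.26 and -0.90, so the rule was missed in females. The RNA of H2-T24 given above had both female KO libraries over every female Het library, while male KO replicate 1 (1.46) lay below male Het1 replicate 2 (1.55) and Het2 replicate 2 (1.48). The next highest H3K9me3 in male Het germ cells was at H2-Q6 (0.992), with 0.657 in male KO, 0.76 in female Het and 0.491 in female KO.

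**Figure D5:**
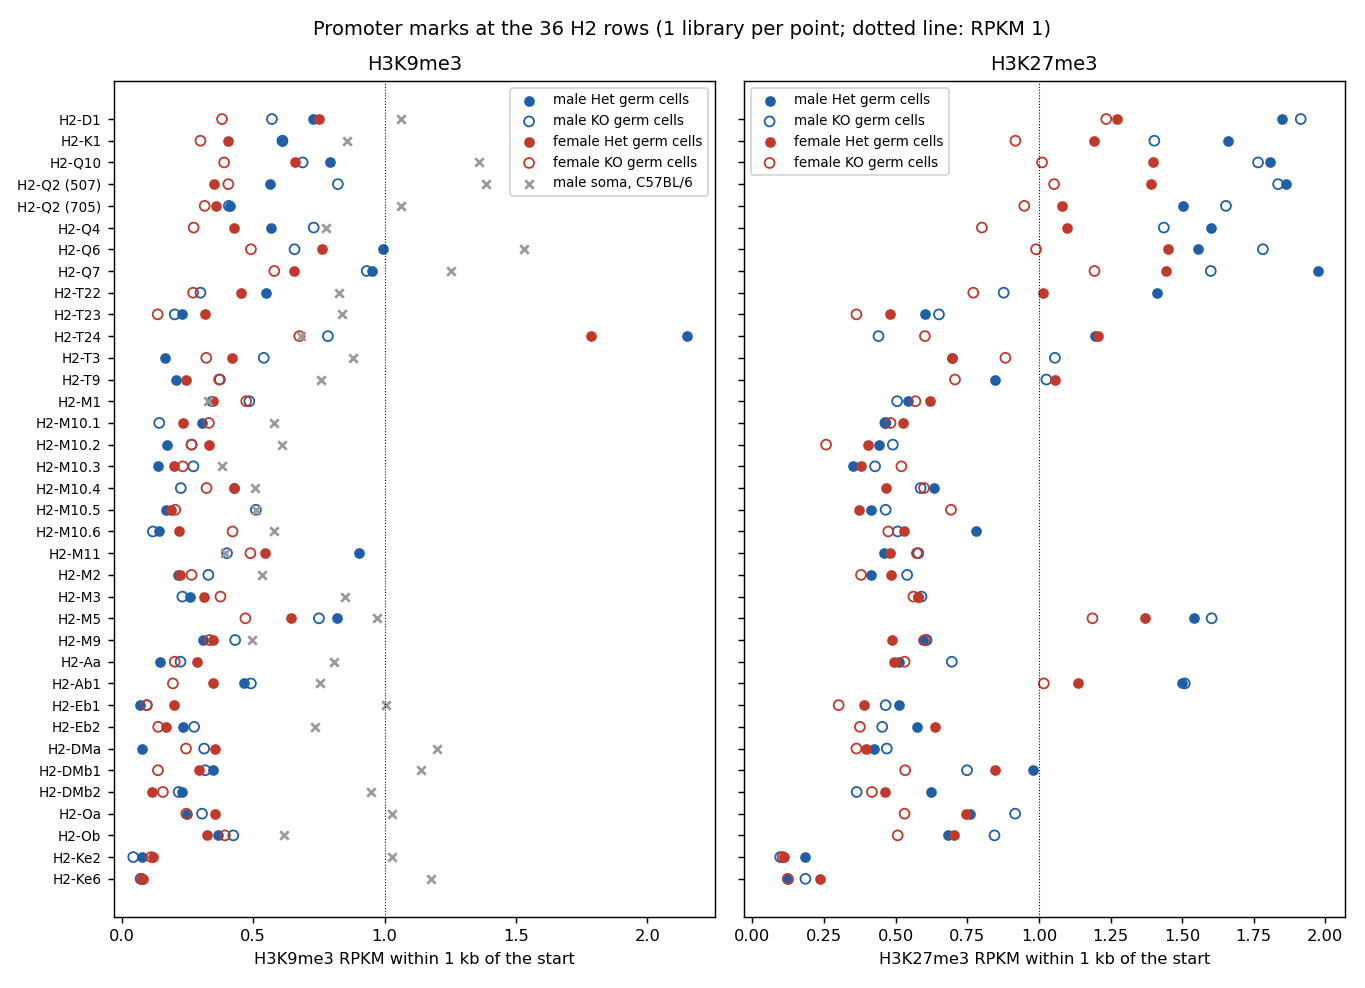
RPKM of H3K9me3 (left) and H3K27me3 (right) within 1 kb of the start (horizontal axes) is shown for the 36 H2 rows (vertical axis); filled points are Het and open points KO germ cells, blue male and red female, and grey crosses are male soma. H2-T24 is alone above 1 for H3K9me3 in germ cells at 2.152 and 1.787 and falls below 1 in both KO libraries, while 12 promoters lie above 1 for H3K27me3 in both Het libraries.

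In the soma library promoter H3K9me3 was higher at most H2 genes, as at most promoters. Over the 13 H2 promoters at RPKM 1 or more in soma or male Het germ cells, 8 were past 2-fold higher in soma, beside 79.4% of all 4306 such promoters. They were H2-Ke2, H2-Ke6, H2-Oa, H2-DMa, H2-DMb1, H2-Eb1 and both H2-Q2 rows. All 8 reached RPKM 1 only in the soma library. Of all promoters, 18.6% reached RPKM 1 in soma and 1.35% in male Het germ cells. The floor thus favoured promoters high in soma, and the count is not evidence about the family. With promoters centred on their median, or with 0.5 RPKM added, 5 of the 8 stayed past 2-fold, without H2-DMb1 and the H2-Q2 rows. The median log2 difference was 1.19 over the 13 and 1.94 over all, since the median promoter stood at 0.721 in the soma library and 0.127 in male Het germ cells. The soma values of H2-Ke2 (1.027) and H2-Ke6 (1.178), with 19.69 and 15.77 RPKM of RNA in C57BL/6 soma, stood beside 1.029 at H2-Oa, with 0.13 RPKM of RNA there. H2-T24 went the other way, with 0.681 in soma against 2.152 in male Het germ cells, beside 2.44% of all promoters that were past 2-fold lower. Cell type, strain and library cannot be told apart in this comparison. H2-T24 RNA was 2.59 in C57BL/6 soma and 1.04 ± 0.57 in male Het germ cells (SD, n = 4).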

How the data were processed

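RNA-seq, H3K9me3 and H3K27me3 values are RPKM made by the authors and deposited as 1 table per gene and 1 per promoter (1 kb on either side of the start). Per the submitters' processing notes, BWA was used on the mm9 build, with SAMtools for RNA. Not given in the sources used here are versions, the read counter, and the treatment of strand, of reads shared between near-identical H2 genes and of other MHC haplotypes. Shared reads would move values between H2-K1, H2-D1 and the Q genes, and unaligned reads would lower the value of their gene. The tables hold no counts, so depth is unknown and no counting interval is given.

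RNA was taken as log2(RPKM + 1), which understates changes of low genes. Genes at RPKM 1 or more in at least 2 of 12 libraries (male and female Het, n = 4 each, and KO, n = 2 each) were fitted as 4 group means on the whole table with limma 3.58.1 in R 4.3.3 (trend, two-sided, Benjamini-Hochberg over 13518 genes, threshold 0.05). The script was tested on simulated data. Promoters and soma have 1 library per group and were described by a 2-fold rule, after adding 0.1 RPKM for promoters and 1 for RNA. WT libraries stayed outside the fit. Every tested H2 gene is named; untested ones are named where soma reached RPKM 1 or both Het promoters did, and H2-M3 was named after its values were seen. Of pathway lists, called genes are named, else the one with the smallest p. Alternatives were another pseudocount, no filter, median centring, 1 Het genotype as control, WT added, a replicate block and each library left out. DNA methylation and total H3 were not analysed here. Members and lists were chosen with earlier results of these data known.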

Additional observations from a re-analysis of the deposited data

Results flagged for a closer look

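Each group of 4 Het libraries was checked for a single library that stands apart, that is, whose gap to the nearest other library exceeds 0.829 of the group's range. Over 30 such groups 6 did. The cut-off gives about 1 in 20 only for independent, normally distributed values. The check used RPKM without logs, and several flags fall on the same library, so the count cannot be compared with chance. Female Het2 replicate 1 was the highest of the female Het libraries for H2-K1 (66.86 RPKM), H2-D1 (34.3), H2-Oa (3.71) and H2-Q6 (1.52). Female Het1 replicate 1 was the highest for H2-Q4 (1.77). Male Het2 replicate 1 was the only male Het library in which H2-Q6 was not listed at 0 (0.16).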

How the results depend on the processing

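H2-K1 and H2-D1 stayed higher in female than male Het germ cells past the threshold in 18 of the 19 settings each, the exception being Het2 alone as control (limma adjusted p = 0.0901 and 0.131). H2-Q10 passed in 14 of 15, H2-Ke2 in 14 of 19, H2-Ab1 in 10 of 19, H2-Oa in 10 of 16, H2-Q7 in 8 of 17 and H2-DMa in 7 of 16. The count of H2 genes called in that comparison was 8, fell to 2 with Het1 alone and 0 with Het2 alone, where fewer libraries enter, and ranged from 3 to 8 with 1 library left out; the causes of the other changes were not tested. With the replicate block it was 9 (8 higher, with H2-Q2 added, and 1 lower), and every KO contrast stayed at 0. The labels do not say what a replicate number marks. Deviations of same-numbered libraries correlated above 0.1 in 14 of 15 pairs of groups (highest 0.56) and not in female Het1 with Het2 (-0.04). The main fit did not use the replicate numbers. With the replicate block, calls between the sexes over all genes rose from 4312 to 5347. Whether the numbers mark a shared batch was not tested. Leaving out 1 library gave 0 to 2 called H2 genes in female KO and 0 to 1 over both sexes.

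Of the promoter results, the H3K9me3 call of H2-T24 was lost with a pseudocount of 0.5 (count 0), H3K27me3 gained 1 promoter, H2-T24, under a 1.5-fold rule, and promoters whose H3K9me3 differed past 2-fold between soma and germ cells in either direction, 9 with H2-T24 as the lower one, were 21 with a floor of RPKM 0.5 and 6 with a pseudocount of 0.5 or with centring, H2-T24 among them. Differences that changed sign were all far from the threshold (limma adjusted p of 0.748 or more). Between the sexes these were H2-Q4 (-0.18 with Het2 alone, -0.020 to 0.23 with 1 library left out), H2-T22 (0.0056 with WT added, -0.25 to 0.052 with 1 left out) and H2-T24 (0.029 with Het2 alone, 0.0013 with WT added, -0.34 to 0.019 with 1 left out). In male KO these were H2-Q7 (-0.022 with median centring, -0.0072 with WT added, -0.011 to 0.083 with 1 left out) and H2-Ke6 (-0.039 to 0.17 with 1 left out). Over all genes, female KO calls fell from 55 to 23 with median centring, 30 with a pseudocount of 0.1, 8 with Het1 alone and 2 with Het2 alone, and rose to 140 without the filter, 91 with the replicate block and 164 without female Het2 replicate 1.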
